A study of Homo sapiens with 4 samples.

Results

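NRF2 target genes and pentose phosphate enzymes were examined in HCT116, an established line of human colon carcinoma cells, cultured either flat as monolayers or as multicellular spheroids (MCS). The 9 genes were chosen by name: PGD, TKT and TALDO1 of the pentose phosphate pathway, and the NRF2 targets NQO1, GCLM, GCLC, TXNRD1, SRXN1 and HMOX1. They were read from every probe set whose single annotated gene symbol was one of these names, which gave 20 probe sets of 41091 with 1 symbol. All 9 genes passed a filter on low signal (mean over the 4 arrays above 300 units) with at least 1 probe set, and 15 of the 20 probe sets passed. They were 9 of 8721 genes tested.

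The unmodified and untreated cells formed 2 groups, monolayer (2 cultures) and spheroid (2 cultures), each culture hybridized to its own 1-colour oligonucleotide array. The comparison asks how transcript levels differ between the culture forms, the study having used spheroids for their quiescent, poorly oxygenated cells. Each array averaged whole spheroids, so the rim and the core were not separated, and fewer cells of a type and less RNA per cell cannot be told apart. Of 9 epithelial markers 6 were above the filter, whereas the intestinal genes KRT20, CDX2 and VIL1 did not exceed 193. All 9 together summed to 80884 and 88783 in monolayers and 98164 and 93578 in spheroids. Of the 6 above the filter, the junction genes CLDN4 (2.73 on the log2 scale) and CDH1 (1.73) and the keratin KRT19 (0.79) were called higher in spheroids. The others were not called: the keratin KRT8 was lower without overlap (-0.49, limma adjusted p = 0.0534), KRT18 was at -0.11 and EPCAM at 0.02. The part of these differences in the results was not tested. Of 12 markers of blood, endothelial and stromal cells 1 was above it, the collagen gene COL1A1 (869 and 658 in monolayers, 2222 and 2659 in spheroids), and none of the others exceeded 199. The 12 summed to 1438 and 1033 on the monolayer arrays and to 2749 and 3017 on the spheroid arrays. COL1A1 made up most of each sum and accounted for the rise. The part of these markers in the results was not tested.

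The transcription factor NRF2, encoded by NFE2L2, is held at a low level by KEAP1, an adaptor that presents it to a ubiquitin ligase. Oxidants and electrophiles modify KEAP1, and NRF2 then pairs with a small MAF protein on antioxidant response elements and induces genes that make and use glutathione, thioredoxin and NADPH. BACH1, a haem-regulated repressor, competes for the same elements. The pentose phosphate pathway has an oxidative branch, which yields NADPH for these reductive systems, and a non-oxidative branch, which exchanges sugar phosphates with glycolysis and supplies ribose for nucleotides.

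The 9 genes did not move as a block. By the brightest probe set of each gene, 3 were higher in spheroids (HMOX1, NQO1 and GCLC), 2 were lower (GCLM and SRXN1) and 4 were not called (limma, adjusted p under 0.05 over all 8721 genes). Of all genes tested, 39.6% were called, 19.0% higher and 20.6% lower, so 5 of 9 is a share to be read against that background. The median log2 difference of the 9 genes was 0.13, against -0.03 over all genes, and single genes ran from -1.20 to 1.42. The ranges of the culture forms were apart for 8 of the 9 genes, all but TXNRD1, as they were for 70.0% of all genes tested. Differences are spheroid minus monolayer on the scale of log2(signal + 32) with standard errors, and signals are means ± SD, n = 2 per group.

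**Figure D1:**
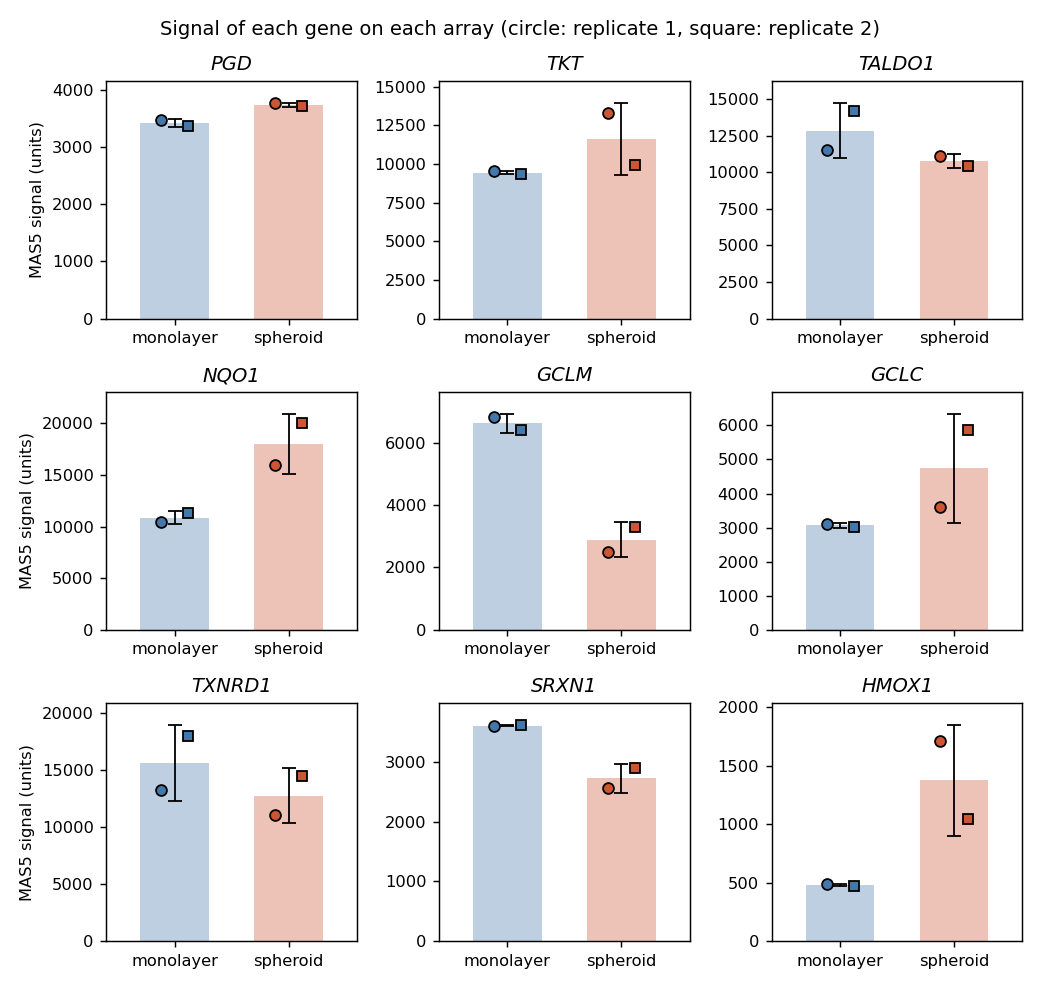
MAS5 signal (y, linear, from 0) of the 9 genes on the 2 monolayer and 2 spheroid arrays, with bars at the group mean, error bars of 1 SD and a point per array (circle, replicate 1; square, replicate 2). HMOX1, NQO1 and GCLC were higher in spheroids and GCLM and SRXN1 lower, while the TXNRD1 arrays of both groups overlapped.

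The subunits of glutamate-cysteine ligase, the enzyme of the rate-limiting step of glutathione synthesis, differed in opposite directions. GCLM encodes its modifier subunit, which raises the activity of the catalytic subunit. The signals of GCLM were 6844 and 6407 in monolayers and 2503 and 3284 in spheroids. Both spheroid cultures were below both monolayer cultures, with mean signals of 2893 ± 552 and 6625 ± 309, a ratio of 0.437 and a log2 difference of -1.20 ± 0.16 (limma, adjusted p = 1.19e-04). It was called lower under each of the 14 alternative settings run, at adjusted p of 7.23e-08 to 0.0103. A further GCLM probe set read 1600 and 1426 in monolayers and 695 and 830 in spheroids, a lower level as well (-0.96 ± 0.19, limma adjusted p = 0.00379 over all probe sets). The dimmest GCLM probe set above the filter read 812 and 410 in monolayers and 386 and 598 in spheroids, so its groups overlapped and it was not called (-0.25 ± 0.32).

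GCLC, the catalytic subunit, went the other way. Its signals were 3112 and 3018 in monolayers and 3604 and 5873 in spheroids, with the spheroid cultures far apart. The log2 difference was 0.58 ± 0.20 (limma, adjusted p = 0.0345), and it fell to 0.23 without spheroid replicate 2 (adjusted p = 0.352), where it was not called. A separate GCLC probe set gave 1642 and 1641 in monolayers against 2104 and 3164 in spheroids, a difference of 0.64 ± 0.20 (limma, adjusted p = 0.0326 over all probe sets), with the same spheroid culture the higher. The probe set used for the gene had adjusted p = 0.0528 in that fit over all probe sets and was not called there. The lower GCLC probe set, below the filter, read 74.4 and 71.6 in monolayers and 112 and 104 in spheroids.

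Because scaling an array moves both genes alike, the ratio of GCLC to GCLM within an array hardly depends on it (the added 32 units are small beside these signals). Relative to the monolayer mean, the log2 ratios were -0.03 and 0.03 on the monolayer arrays and 1.62 and 1.94 on the spheroid arrays. The ratio was thus 3.43-fold higher in spheroids (1.78 on the log2 scale). Its groups did not overlap, which follows from the opposite, non-overlapping differences of both genes and adds no support to them. An exact two-sided permutation test over the 4 arrays gave p = 0.333, the smallest that 2 arrays against 2 allow, so it could not decide. The ratio shows that the transcripts changed unequally, not that either was constant.

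The sequences before the start sites of GCLC and GCLM are shown because these are the genes that moved apart, with the letters of a core antioxidant response element (TGACNNNGC, searched on both strands) in capitals. They are the 250 bases upstream of each gene's start in RefSeq (GRCh38.p14, 5′ to 3′ on the gene's strand), on the minus strand at chr6:53545102-53545351 for GCLC and at chr1:93909431-93909680 for GCLM.
GCLC: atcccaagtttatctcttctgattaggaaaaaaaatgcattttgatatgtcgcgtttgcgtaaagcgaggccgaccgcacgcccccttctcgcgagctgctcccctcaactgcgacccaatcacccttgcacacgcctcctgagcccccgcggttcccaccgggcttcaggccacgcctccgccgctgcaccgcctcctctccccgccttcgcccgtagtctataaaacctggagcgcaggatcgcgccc
GCLM: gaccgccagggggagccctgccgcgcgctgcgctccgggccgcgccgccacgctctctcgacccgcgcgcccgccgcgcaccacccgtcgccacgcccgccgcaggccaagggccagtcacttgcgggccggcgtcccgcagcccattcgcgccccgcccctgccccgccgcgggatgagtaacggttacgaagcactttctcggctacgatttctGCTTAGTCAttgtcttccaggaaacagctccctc
The GCLM window held 1 match, 34 to 26 bases before the start and read on the opposite strand, and the GCLC window held 0. Of the 9 promoter windows that RefSeq gives for 8 of the genes, 4 held a match (1 of GCLM, 1 of PGD and 2 of TXNRD1), and 10.9% of all 35116 windows of that length did. PGD and TXNRD1 are genes of the plus strand. PGD had 1 match, read on the opposite strand, at chr1:10398855-10398879 with its flanks. TXNRD1 had 1 in each of its promoters. The upstream one was read on the gene's strand (chr12:104215672-104215696) and the downstream one on the opposite strand (chr12:104286922-104286946). They are printed here 5′ to 3′ on the gene's strand for comparison with the GCLM site.
PGD: tcgccgggGCAATGTCAtctaggtg
TXNRD1, upstream promoter: acgggctaTGACTTCGCtgttgtca
TXNRD1, downstream promoter: ggatttctGCTTTGTCAttctgact
A match is a description of the letters in this window, and elements farther from the start lie outside it.

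**Figure D2:**
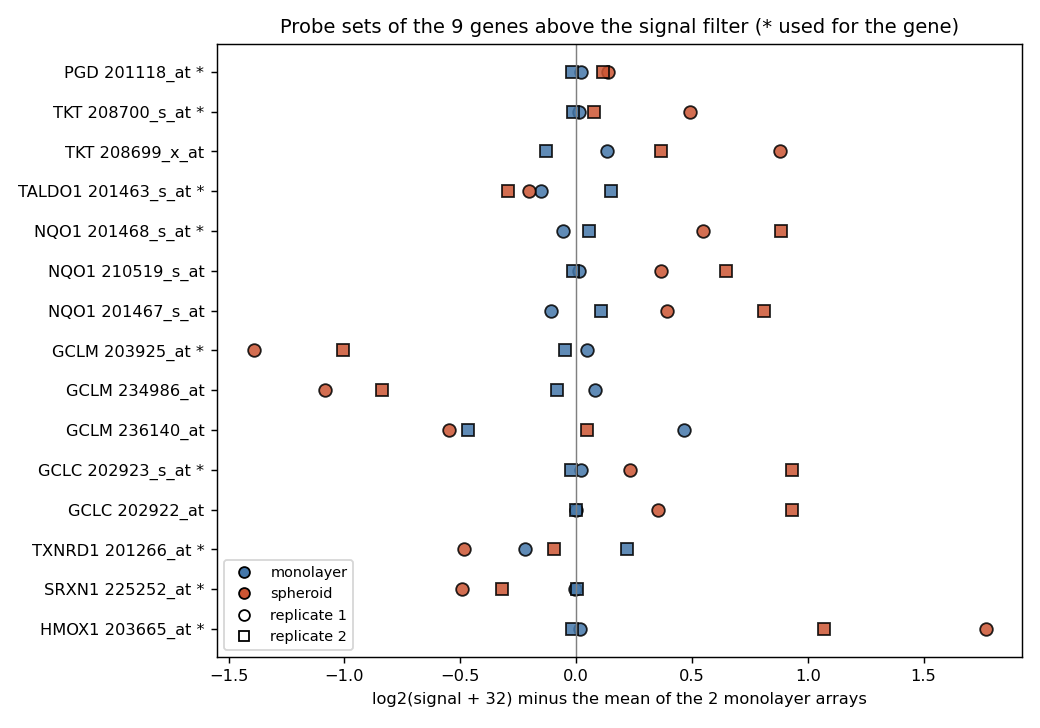
Log2(signal + 32) minus the mean of the 2 monolayer arrays (x) for the 15 probe sets of the 9 genes above the signal filter (y, 1 row per probe set, an asterisk marking the one used for the gene), with a point per array. The 3 NQO1 and 2 GCLC probe sets lay to the right in both spheroid cultures and 2 of the 3 GCLM probe sets to the left, while the third overlapped.

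Of 23 tested genes of glutathione synthesis and use, 4 were higher (17.4%, against 19.0% of all genes tested) and 9 lower (39.1%, against 20.6%), with a median log2 difference of -0.20, and without GCLC and GCLM the counts were 3 and 8 of 21. GLRX, a cytosolic glutaredoxin that reduces glutathionylated proteins, was among the genes of the redox lists that differed most. Its signals were 1269 and 1731 in monolayers and 14387 and 9544 in spheroids, a log2 difference of 2.96 ± 0.20 (limma, adjusted p = 6.67e-07). The glutaredoxin GLRX2 moved oppositely, from 4676 ± 224 to 2129 ± 477 (-1.14 ± 0.17). OPLAH, which returns oxoproline to glutamate, was higher (0.95 ± 0.28), a call lost without monolayer replicate 2 (0.70) or spheroid replicate 1 (0.85). The OPLAH mean was below the signal filter in monolayers (207) and above it in spheroids (425). SLC7A11, the cystine importer that feeds glutathione synthesis, was level within its spread at 2277 and 2415 in monolayers and 1989 and 2792 in spheroids (0.007 ± 0.18, 95% interval -0.39 to 0.40).

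SRXN1 encodes sulfiredoxin, which restores over-oxidized peroxiredoxins, and its signals were 3607 and 3622 in monolayers and 2558 and 2893 in spheroids. The groups did not overlap, but the difference was small (-0.41 ± 0.15, limma adjusted p = 0.0469) and close to the threshold. It was not called in 9 alternatives, 4 of which left out an array (-0.49 to -0.32, adjusted p of 0.0557 to 0.203). TXNRD1, the cytosolic thioredoxin reductase, which uses NADPH to recycle thioredoxin, was bright in both cultures at 13210 and 17947 in monolayers and 11013 and 14421 in spheroids. Its groups overlapped and it was not called (-0.29 ± 0.16, 95% interval -0.64 to 0.06). It passed without monolayer replicate 1 (-0.51), a fit that leaves a single monolayer array. Within each replicate number the spheroid culture was the lower, and with that number as a block TXNRD1 passed (limma, adjusted p = 0.0190). The labels do not give that number as a pairing, so the block is an alternative setting only.

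Around these genes, 7 of 17 tested members of the thioredoxin and peroxiredoxin system were lower (41.2%, against 20.6% of all genes tested). In the same list 1 was higher (5.88%, against 19.0%), and the median was -0.28. Without TXNRD1 and SRXN1 the counts were 6 and 1 of 15. The number of lower calls in this list was 4 without monolayer replicate 2 and 3 without either spheroid replicate. PRDX3, the mitochondrial peroxiredoxin, fell from 16964 ± 576 to 9933 ± 457 (-0.77 ± 0.12, limma adjusted p = 2.85e-04). The thioredoxin-like TXNDC17 was also lower (-0.59 ± 0.13). The methionine sulfoxide reductases, which repair oxidized methionine, split: MSRB3 was lower (-1.49 ± 0.24) and the mitochondrial MSRB2 higher (1.27 ± 0.19). The MSRB3 mean was above the signal filter in monolayers (841) and below it in spheroids (283).

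HMOX1, haem oxygenase, which opens haem into biliverdin, iron and carbon monoxide, rose most among the 9 genes. It was dim in monolayers at 486 and 474, and read 1711 and 1041 in spheroids. Both spheroid cultures were above both monolayer cultures, and the spheroid cultures differed from each other more than the monolayers did. The means were 1376 ± 474 and 480 ± 8.23, a 2.87-fold ratio and a log2 difference of 1.42 ± 0.24 (limma, adjusted p = 6.56e-04). The difference ran from 1.07 without spheroid replicate 1 to 1.77 without spheroid replicate 2, and was called in both. HMOX1 had a single probe set.

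NQO1, a quinone reductase that uses NADH or NADPH and is a much used readout of NRF2, was higher on all of its 3 probe sets. The brightest read 10462 and 11291 in monolayers and 15923 and 20068 in spheroids, with no overlap. The difference was 0.72 ± 0.13 (limma, adjusted p = 0.00113), or 1.65-fold in mean signal. The other NQO1 probe sets gave 0.51 ± 0.13 and 0.60 ± 0.18 (limma, adjusted p = 0.0146 and 0.0263 over all probe sets). Leaving out any 1 array kept the call, at 0.55 to 0.88.

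Among NRF2 targets of quinone, haem and conjugation metabolism, 7 of 17 tested were higher (41.2%, against 19.0% of all genes tested). In the same list 2 were lower (11.8%, against 20.6%), and the median was 0.36. Without NQO1 and HMOX1 the counts were 5 and 2 of 15. With any 1 array left out, 1 of the 17 was lower. ABCC3, an exporter of conjugated anions, rose from 153 and 161 in monolayers to 1432 and 1255 in spheroids (2.86 ± 0.23, limma adjusted p = 2.52e-06). Its monolayer signals were below the signal filter, which it passed through the spheroid arrays. The related exporter ABCC2 was higher by 0.81 ± 0.23, a call lost without spheroid replicate 2 (0.55), and ABCC4 was lower (-0.88 ± 0.21). The aldo-keto reductases AKR1B10, AKR1C1, AKR1C2 and AKR1C3 were below the filter, with signals of 9.31 to 171, and were not tested.

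By their brightest probe sets, PGD, TKT and TALDO1 were not called, but TKT was under 4 of its alternatives. PGD, 6-phosphogluconate dehydrogenase, which yields NADPH in the oxidative branch, read 3471 and 3378 in monolayers and 3767 and 3712 in spheroids. The spheroid cultures were slightly above the monolayers, by 0.13 ± 0.14 (95% interval -0.18 to 0.43, limma adjusted p = 0.510). TKT, transketolase, which moves 2-carbon units in the non-oxidative branch, read 9517 and 9366 in monolayers and 13277 and 9953 in spheroids (0.28 ± 0.14, limma adjusted p = 0.137). A dimmer TKT probe set read 4622 and 3847 in monolayers and 7781 and 5447 in spheroids, which was called (0.62 ± 0.18, limma adjusted p = 0.0237 over all probe sets), as was the mean of its probe sets (0.45, adjusted p = 0.0458). Without spheroid replicate 1 the difference of TKT was 0.08. Without spheroid replicate 2 it was 0.49 and was called, in a fit that leaves a single spheroid array. TKT also passed with quantile normalization (0.39, limma adjusted p = 0.0459) and with the replicate block (limma, adjusted p = 0.0456), although the labels give no pairing. TALDO1, transaldolase, its partner in that branch, read 11492 and 14188 in monolayers and 11101 and 10404 in spheroids (-0.25 ± 0.13, limma adjusted p = 0.154), and passed without monolayer replicate 1 (-0.40). Within an array the ratio of TKT to TALDO1 was 1.45-fold higher in spheroids (exact two-sided permutation p = 0.333, the smallest possible). Its groups did not overlap, which follows from the opposite, non-overlapping differences of both genes.

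Of 11 tested pentose phosphate genes, 1 was higher (9.09%, against 19.0% of all genes tested) and 4 lower (36.4%, against 20.6%), with a median of -0.13. Without PGD, TKT and TALDO1 the counts were 1 and 4 of 8. The number higher was 0 without either monolayer replicate or spheroid replicate 1, and 3 without spheroid replicate 2. PRPS1 and PRPS2, which turn ribose phosphate into the precursor of nucleotides, fell by 1.01 ± 0.14 and 0.74 ± 0.14 on the log2 scale. PRPS1 read 5295 and 5210 in monolayers and 2635 and 2539 in spheroids (limma, adjusted p = 1.73e-04). RPIA, the isomerase that makes ribose phosphate, was lower (-0.82 ± 0.16). The fourth lower gene, TIGAR, a phosphatase that diverts sugar phosphate toward this pathway, was named after its value was seen (-0.65 ± 0.17). The ribokinase gene RBKS was higher (0.74 ± 0.26), a call lost without either monolayer replicate (0.66 and 0.83) or without spheroid replicate 1 (0.52). The RBKS mean was below the signal filter in monolayers (256) and above it in spheroids (455).

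Of 8 tested genes listed as other sources of NADPH, 2 were higher (25.0%, against 19.0% of all genes tested) and 3 lower (37.5%, against 20.6%). The list goes by name, and the cofactor that each enzyme uses was not examined. Their median was -0.19. The isocitrate dehydrogenases were the higher ones: cytosolic IDH1 read 2889 and 2826 in monolayers and 5192 and 5018 in spheroids (0.83 ± 0.14, limma adjusted p = 6.48e-04), and mitochondrial IDH2 was higher by 0.96 ± 0.22, not called without spheroid replicate 1 (0.71). The malic enzyme ME2 (-0.70 ± 0.15) and the folate dehydrogenase MTHFD2 (-0.65 ± 0.11) were lower. So was MTHFD1 (-0.50 ± 0.13), whereas the malic enzyme ME1 was level (0.007 ± 0.14). MTHFD1 and ME1 were named after their values were seen.

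The transcript of NRF2 itself was not called. NFE2L2 read 10404 and 11559 in monolayers and 12824 and 12744 in spheroids (0.22 ± 0.12, 95% interval -0.04 to 0.48, limma adjusted p = 0.160), although it passed with quantile normalization (0.32, adjusted p = 0.0325). Protein stability, through which KEAP1 acts, is not measured by these arrays. KEAP1 read 2031 and 1871 in monolayers and 1416 and 1343 in spheroids, a difference of -0.49 ± 0.17 (limma, adjusted p = 0.0350) that lost its call without any 1 of the 4 arrays (-0.55 to -0.43). The repressor BACH1 was higher (653 and 732 against 1026 and 1288, 0.71 ± 0.20), but not without monolayer replicate 1 (0.63) or spheroid replicate 2 (0.55). The small MAF gene MAFF, whose protein pairs with NRF2 or BACH1, rose from 1911 and 2967 to 7784 and 9959 (1.87 ± 0.20, limma adjusted p = 2.50e-05). Of 19 tested genes of NRF2 and its regulators, 3 were higher (15.8%) and 4 lower (21.1%), near the 19.0% and 20.6% of all genes tested. Their median was -0.008, and both counts fell when some single arrays were left out. PGAM5, a mitochondrial phosphatase that binds KEAP1, was lower (-1.66 ± 0.25). The PGAM5 mean was above the signal filter in monolayers (655) and below it in spheroids (185). GSK3B, a kinase that marks NRF2 for degradation, was higher (0.69 ± 0.17, and 0.56 without spheroid replicate 2, where it was not called). SQSTM1, whose protein p62 sequesters KEAP1, was not called (0.28 ± 0.18), but passed without monolayer replicate 1 (0.51), as the mean of its probe sets (0.55) and with _x_at and _s_at probe sets left out (1.12).

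Of 9 tested genes that remove superoxide or peroxide and were listed outside NRF2 control, 3 were higher (33.3%, against 19.0% of all genes tested). In this list 0 were lower (against 20.6%), and the median was 0.05. Catalase (CAT) rose from 2717 ± 74.8 to 4878 ± 408 (0.83 ± 0.15, limma adjusted p = 7.81e-04). CCS, the copper chaperone of superoxide dismutase, was higher by 1.05 ± 0.22. OXR1 was higher by 0.54 ± 0.20 and was not called in 9 alternatives, with a negative sign without _x_at and _s_at probe sets (-0.25). Over the 7 lists together, 21 of 104 tested genes were higher (20.2%, against 19.0% of all genes tested) and 29 lower (27.9%, against 20.6%), with a median of -0.07.

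**Figure D3:**
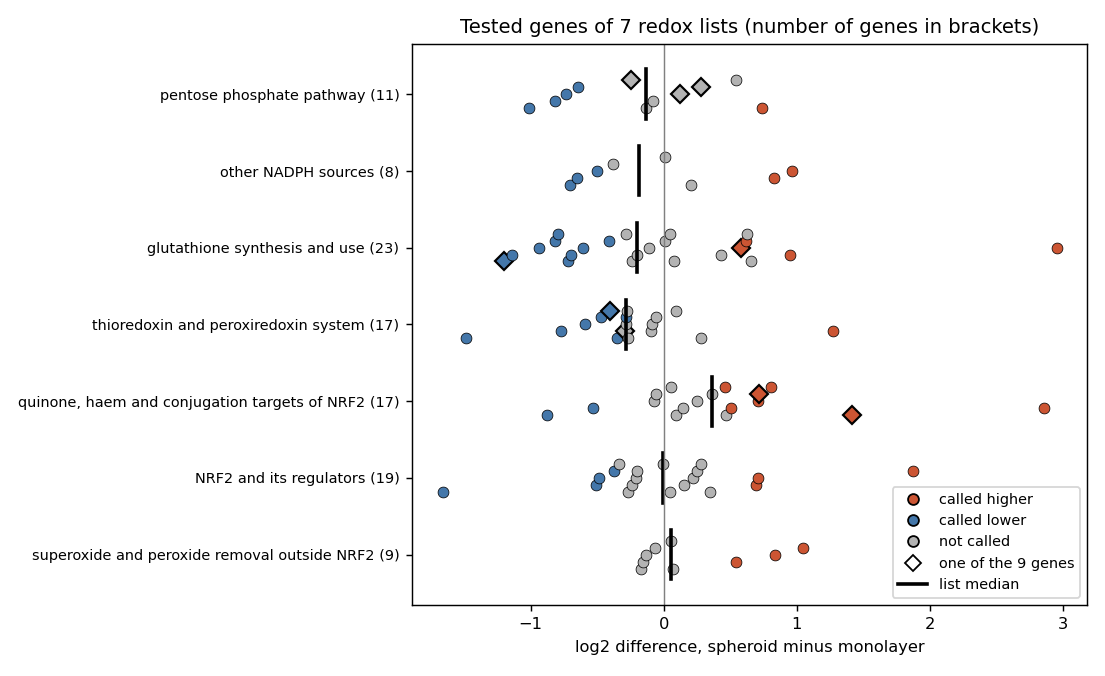
Log2 difference, spheroid minus monolayer (x), of each tested gene in 7 redox lists (y, with the tested number). Red points passed as higher, blue as lower, grey points did not pass, black bars are medians and diamonds are the 9 genes. Medians ran from -0.28 for the thioredoxin system to 0.36 for quinone, haem and conjugation targets, and each list but the last held called genes on both sides of 0.

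MAS5 scaling sets every array to the same trimmed mean, so the directions above are relative ones. The Bacillus spike-in controls had mean signals of 1306 and 1445 in monolayers and 3110 and 2021 in spheroids, so they were brighter in spheroids and differed most between the spheroid arrays. Scaling to them put the median over all genes at -0.87, with 169 called higher and 4073 called lower. Among the 9 genes, 0 were then higher and 4 lower (GCLM, SRXN1, TXNRD1 and TALDO1). HMOX1 stayed above 0 at 0.59 ± 0.41 but was not called (limma, adjusted p = 0.213), whereas NQO1 and GCLC turned to -0.15 ± 0.39 and -0.27 ± 0.41. GCLM was -2.05 ± 0.41 (adjusted p = 2.56e-05). PGD and TKT turned to -0.73 and -0.58, neither called. Such a scaling shifts all genes of an array alike, so it leaves their order nearly as it was.

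**Figure D4:**
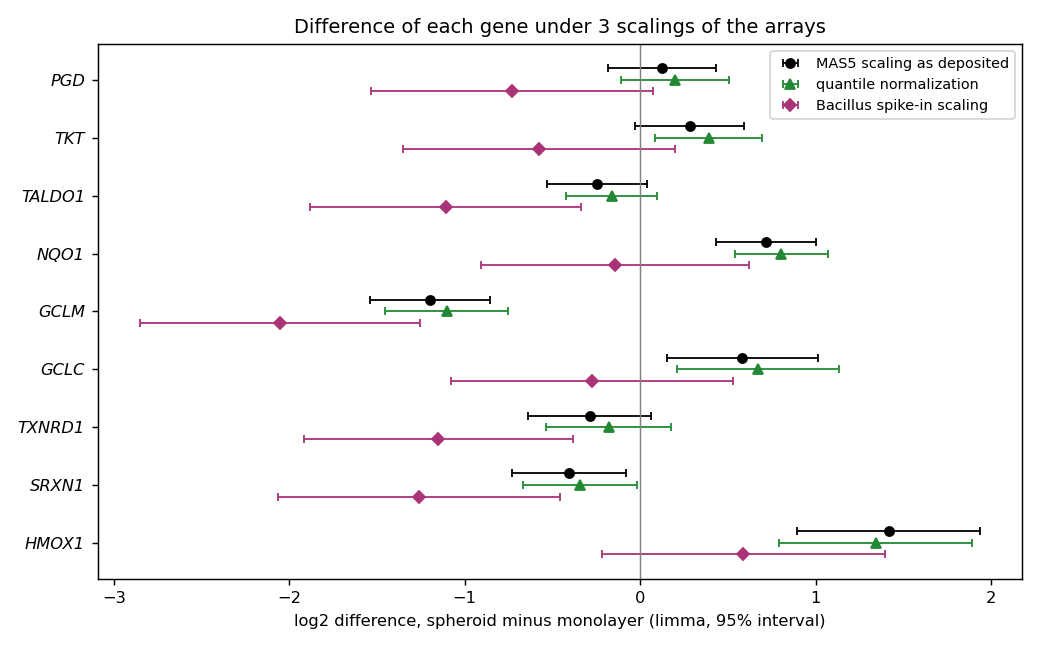
Log2 difference, spheroid minus monolayer (x), of the 9 genes (y) with 95% intervals from limma under the deposited MAS5 scaling (circles), quantile normalization (triangles) and Bacillus spike-in scaling (diamonds). Spike-in scaling moved every gene down with wider intervals, leaving GCLM lowest at -2.05 and HMOX1 highest at 0.59.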

How the data were processed

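Total RNA of 2 monolayer and 2 spheroid cultures of HCT116 cells was hybridized to 1-colour Affymetrix U133 Plus 2.0 arrays. The deposited values are linear intensity per probe set, which the authors made with MAS5 (version not given in the sources used here). Each array had a trimmed mean of 500.1, so per-cell mRNA amounts are not kept, and 27.5% to 30.0% of probe sets were above 300 units. The number of arrays limits the precision. Replicates are independent cultures, per the methods.

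Of 54675 probe sets, 62 were controls, 41091 others carried a single symbol, 1801 more than one and 11721 none in the platform table, and matching gene identifiers to RefSeq (GRCh38.p14) changed 0 symbols. The analysis scale was log2(signal + 32), where changes of dim genes come out too small. Each gene was its brightest probe set with a mean above 300. That mean was over all arrays, so a gene could pass with the mean of a group below 300. OPLAH, RBKS and ABCC3 did so in monolayers, and MSRB3 and PGAM5 in spheroids. These genes count in the list shares. Spheroids and monolayers were compared with limma 3.58.1 (R 4.3.3), lmFit and eBayes with an intensity trend, two-sided, with the Benjamini-Hochberg adjustment over all genes. There were 2 residual and 10.5 prior degrees of freedom, so p-values and intervals rest largely on variance borrowed from other genes. The fit was tested on simulated data.

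The 9 genes, the lists and the settings were chosen with earlier results of these data known. Named were the 9 genes, NFE2L2, KEAP1, BACH1, SQSTM1 and SLC7A11, and up to 4 called genes of each list by size of difference. Markers were checked on 9 epithelial and 12 other genes. Alternatives changed the filter, the constant, the scaling or the probe set rule, dropped the trend, added the replicate number as a block, or left out an array. Leaving out an array leaves a single culture in its group, so the spread comes from the other group and from other genes. Calls of those fits are descriptive. Positions are given for RefSeq promoters alone. HMOX1 had no RefSeq promoter entry.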

Additional observations from a re-analysis of the deposited data

How the results depend on the processing

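With 2 arrays per group the calls near the threshold depended on single settings. Among the 9 genes, 2 were lower, but 1 with no signal filter, with a filter at 100, with quantile normalization, with no intensity trend and without _x_at and _s_at probe sets, and 1 to 3 with an array left out. The number higher was 3 with any array left out, with TKT in place of GCLC without spheroid replicate 2. It was 4 with quantile normalization and with the mean of probe sets, 2 with no signal filter, no intensity trend or no _x_at and _s_at probe sets, and 0 with spike-in scaling, where 4 were lower. The median of the 9 genes was 0.20 with quantile normalization, -0.73 with spike-in scaling, -0.081 without _x_at and _s_at probe sets (6 genes) and 0.076 to 0.15 with an array left out.

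Over all genes, spike-in scaling gave 169 higher and 4073 lower, and leaving out _x_at and _s_at probe sets gave 1114 lower, with 6094 genes tested. Leaving out an array gave 1208 to 1502 higher and 1362 to 1484 lower. Of the 7 redox lists together, 3 were higher and 50 lower with spike-in scaling, 13 and 19 of 72 without _x_at and _s_at probe sets, and 17 to 20 higher and 19 to 26 lower with an array left out.

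Signs turned with spike-in scaling for PGD (-0.73), TKT (-0.58), NQO1 (-0.15), GCLC (-0.27), NFE2L2 (-0.64), BACH1 (-0.12), SQSTM1 (-0.57), SLC7A11 (-0.84), RBKS (-0.048), IDH1 (-0.026), ABCC2 (-0.0094), GSK3B (-0.15), CAT (-0.021) and OXR1 (-0.30), since that scaling lowers every spheroid value. OXR1 also turned without _x_at and _s_at probe sets (-0.25), where another probe set stood for the gene. SLC7A11, near 0, ran from -0.23 to 0.25 with an array left out. GCLC also lost its call with no signal filter (adjusted p = 0.126) and no intensity trend (0.0942). Where no construction shows it, the cause was not tested.

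The shared replicate number was not a pairing given by the labels. Deviations of same-numbered arrays correlated at 0.32 across genes. With the replicate block 2114 genes were higher and 2301 lower, and of the 9 genes 4 and 3, with TKT (0.28, adjusted p = 0.0456) and TXNRD1 (-0.29, adjusted p = 0.0190) now passing.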
